A study of Mus musculus with 4 samples.

Results

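The genes described here are 9 mouse genes of retinoic acid synthesis, breakdown, binding and reception, namely Aldh1a2, Cyp26a1, Crabp1, Crabp2, Rara, Rarb, Rarg, Rxra and Rxrb. They were chosen by name, starting from Cyp26a1, the gene with the largest fall in this comparison, and every probe set whose single gene symbol is one of them was taken. That gave 9 probe sets of 12422 tested, covering 8 of the 9 genes and of 8251 genes measured in all. Rxra had 2 probe sets, the other 7 measured genes had 1 each, and Rarb was not analysed here because no probe set is listed under its symbol alone. The question was whether the other genes of the pathway followed Cyp26a1.

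Retinoic acid is a signal made from vitamin A. Retinaldehyde dehydrogenases such as Aldh1a2 make it, CRABP proteins carry it inside the cell, CYP26 enzymes oxidise and remove it, and pairs of a retinoic acid receptor (RAR) and a retinoid X receptor (RXR) bind DNA and switch genes on or off when it binds. In the embryo it patterns the trunk and hindbrain and acts on mesoderm and blood formation, while Cyp26a1 is known in gastrulating embryos as the enzyme that keeps its level low. Cyp26a1 and Rarb are themselves textbook targets of the receptors, through a direct repeat of a short motif in their promoters.

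RNA from cultured mouse cells was measured on 4 single-colour arrays, 2 titled Hemangioblast and 2 titled hCD4. All cells derive from 1 embryonic stem (ES) cell line that carries human CD4 as a reporter of the Scl gene (Tal1), kept on inactivated STO feeder fibroblasts with LIF and differentiated with fetal calf serum. The study sorted Flk-1 and Scl double-positive cells, its hemangioblasts, from embryoid bodies at day 2.75, and also picked and pooled blast colonies grown from replated cells. The titles name the groups Hemangioblast and hCD4, the source labels name hemangioblasts and hCD4 ES cells, and the design text names hCD4 and Blast, so the labels differ on what each array holds and the groups are called by their titles. The labels do not say if replicate arrays are of separate cultures, and the p-values and intervals therefore rest on a spread that may be technical.

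The genes behind the sort, Kdr and Tal1, were lower on the arrays titled Hemangioblast, against that title. Tal1 was at 391 and 333 there against 597 and 696 on the hCD4 arrays (limma adjusted p = 0.0513). Kdr, the Flk-1 gene used in the sort, was at a scaled intensity of 648 and 570 on the Hemangioblast arrays against 1625 and 2003 on the hCD4 arrays. Of 10 myeloid markers 8 were higher on the Hemangioblast arrays at a limma adjusted p under 0.05. All 10 had a log2 change above 0, and their summed scaled intensity there was 6343 to 6969 against 624 to 627. Of 9 measured erythroid markers 7 were higher at that threshold (38141 to 40860 against 13359 to 14200). All 9 had a log2 change above 0. Of 11 pluripotency markers 3 were lower there at a limma adjusted p under 0.05, and 9 had a log2 change below 0 and 2 above. Their sums, 4903 to 5014 against 6615 to 8720, include Esrrb, which was nearly level at 3165 to 3579. Of 10 sort genes and hemangioblast regulators 3 were lower at that threshold (4175 to 4439 against 6966 to 8460). In that list 9 had a log2 change below 0 and 1 above. Before scaling, trimmed mean intensity ran from 334 to 389. In bulk RNA, fewer cells of a type and less RNA per cell cannot be told apart.

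The repeat that retinoic acid receptors bind is shown first for the pair of member promoters that hold it, because Cyp26a1 is known to answer to its own substrate through it. The sequences are the 250 bases before the annotated start of each gene, from RefSeq on build GRCm38.p6, written 5′ to 3′ on the gene's own strand, with the repeat units in capitals. The Cyp26a1 window is chr19:37697558-37697807 on the plus strand, and the Rarb window is chr14:16575477-16575726 on the minus strand.
Cyp26a1: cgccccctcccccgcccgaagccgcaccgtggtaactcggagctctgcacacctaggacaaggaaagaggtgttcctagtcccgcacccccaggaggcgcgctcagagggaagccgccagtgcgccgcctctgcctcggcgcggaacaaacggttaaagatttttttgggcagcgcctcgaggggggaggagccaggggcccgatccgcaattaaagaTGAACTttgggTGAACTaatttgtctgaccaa
Rarb: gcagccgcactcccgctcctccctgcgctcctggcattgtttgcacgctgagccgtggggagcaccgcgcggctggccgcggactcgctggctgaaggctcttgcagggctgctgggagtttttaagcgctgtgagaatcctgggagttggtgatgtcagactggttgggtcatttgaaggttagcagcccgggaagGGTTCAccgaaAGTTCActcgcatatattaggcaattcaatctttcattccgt

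The motif searched was the direct repeat known as DR5, a unit of RGKTCA (R is A or G, K is G or T) followed by 5 bases of any kind and another such unit, on either strand and with overlapping matches allowed. Of 32851 promoter windows of the same length (300 bases, which include 50 after the start), 32 held it, or 0.0974%. Among the members it was found in Cyp26a1, where it runs from 32 to 16 bases before the annotated start on the opposite strand, and in Rarb, where it runs from 53 to 37 bases before the start on the gene's own strand. Read in the direction of the units, the repeat is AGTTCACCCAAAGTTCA in Cyp26a1 and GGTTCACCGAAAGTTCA in Rarb. The pair match at 15 of 17 positions and differ by A1G and C9G, counted from the 5′ end of the repeat with the Cyp26a1 base first. A TATAAA motif begins 30 bases after the annotated Cyp26a1 start, in the part of the window not printed.

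Windows were present for 8 of the 9 members. Single units, which 43.7% of all windows hold, occurred in Rara, Rarg and Rxra as well, while the windows of Aldh1a2, Crabp1 and Rxrb held none. No member window held the repeat with a spacer of 2 or 1 bases, forms found in 0.268% and 0.222% of windows. A match here is a run of letters and not a measured binding site. Of 31 genes with the repeat spaced by 5 bases, 2 had a probe set listed under their symbol alone, and they moved in opposite directions. Cyp26a1 was lower on the Hemangioblast arrays, as given below. The embryonic globin gene Hbb-y (97180_f_at) was higher, at 9395 and 11105 against 3515 and 3826 (log2 change 1.47, limma adjusted p = 0.00108). The globin gene Hbb-bh1 was also higher (log2 change 2.51), and signal from related globins in the Hbb-y probe set was not tested.

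Cyp26a1, the enzyme that oxidises retinoic acid, was at a scaled intensity of 57.8 and 46.5 on the Hemangioblast arrays against 2102 and 1695 on the hCD4 arrays (probe set 98320_at). Every hCD4 array stood 29.3 to 45.2-fold above every Hemangioblast array over the 4 pairs, while the arrays within each group differed by 1.24-fold. The Hemangioblast mean was 52.1 ± 7.98 (SD, n = 2) and the hCD4 mean 1898 ± 287. The Hemangioblast values were dim, under a scaled intensity of 100, so the size of the fold depends on how background was removed, which is not known here. On log2 of scaled intensity plus 16, the scale of every change and interval below unless a constant of 1 is named, the change was -4.81 (SE 0.211, 95% interval -5.30 to -4.32), given as Hemangioblast minus hCD4. This fall chose the gene, so it is a description and not a test. The limma fit put 4.48% of all probe sets past a Benjamini-Hochberg adjusted p of 0.05, made up of 1.56% lower and 2.91% higher. As probe sets these were 194 lower and 362 higher, and without scaling between arrays 50 lower and 222 higher.

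**Figure D1:**
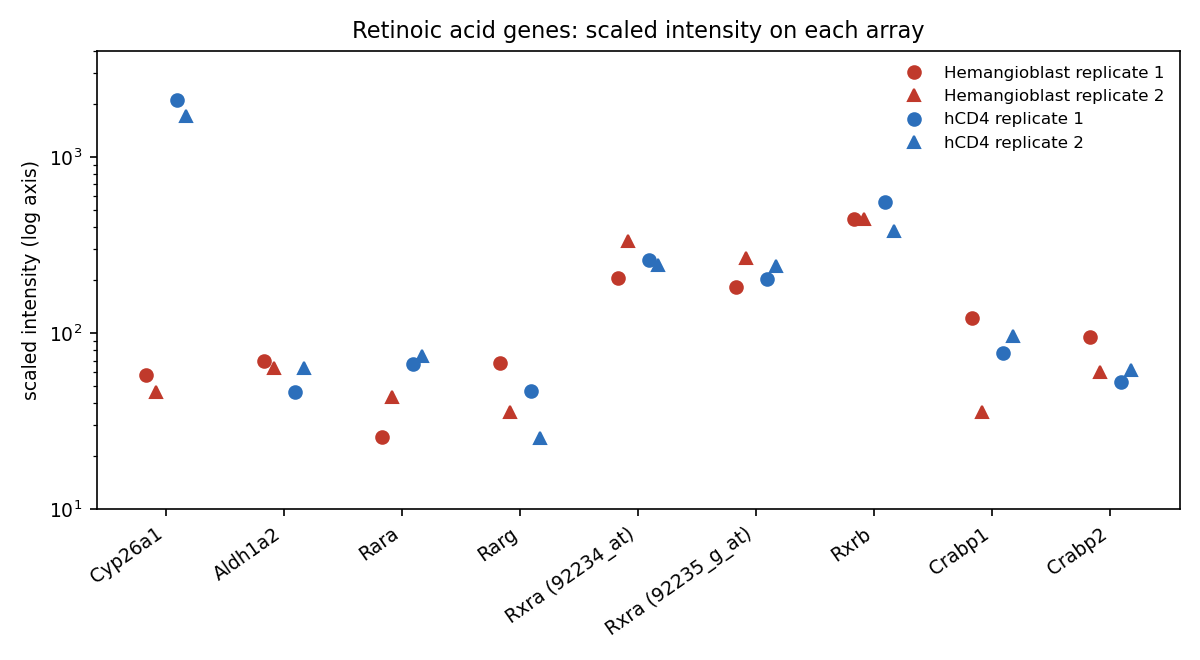
Scaled intensity (log axis) of each member probe set on the 4 arrays, red for Hemangioblast, blue for hCD4, circles for replicate 1 and triangles for replicate 2. Cyp26a1 separates from 46.5 to 57.8 up to 1695 to 2102, while the group means of the other probe sets differ by 2.05-fold at most (Rara). Heights of different probe sets are not comparable.

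No other member probe set passed the test in the direction of Cyp26a1. By limma 0 of 8 passed the adjusted threshold in either direction, against 4.48% of all probe sets, and 0 of 8 had an unadjusted p under 0.05, against 16.3%. No other tool was run. Their log2 changes lay below 0 in 3 and above 0 in 5, with a median of 0.03 beside 0.04 over all probe sets. For 7 of the 8 the fold between replicate arrays of 1 group was larger than the fold between the group means. The groups did not overlap for 2 of the 8 (25%), Rara and Aldh1a2, against 44.4% of all probe sets.

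The intervals give the changes that the spread between these arrays does not exclude. That spread may be technical, and the intervals may then be too narrow for separate cultures. The lowest lower bound among the 8 was -1.60, that of Rara, which leaves a fall of up to 3.04-fold inside its interval. The upper bound of Cyp26a1 was -4.32, and none of these intervals met its interval. Cyp26a1 was chosen for its large fall, so this gap is a description and not a test. The highest upper bound was 1.28, that of Rarg. Of the 8 probe sets 5 had a mean scaled intensity under 100, where the added 16 shrinks a change. With an added constant of 1 the lowest bound was -2.20, again for Rara, and Cyp26a1 was at -5.16 (interval -5.67 to -4.65). A missed threshold does not show that these genes were equal in the groups.

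**Figure D2:**
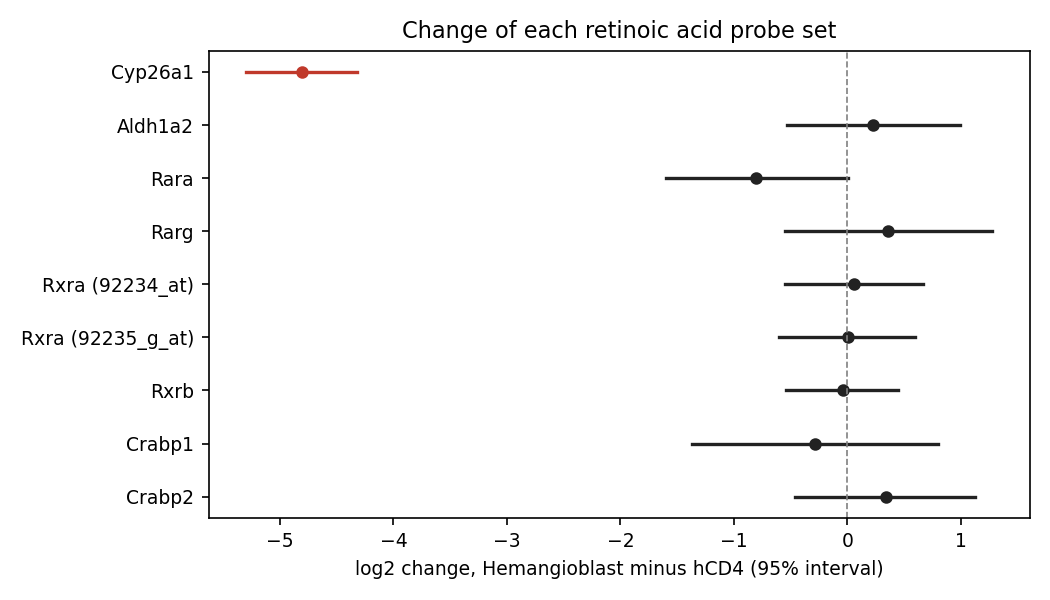
Log2 change (Hemangioblast minus hCD4) of each member probe set with its 95% interval from limma, red where the adjusted p is under 0.05. Cyp26a1 lies at -4.81, and every other interval includes 0.

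The synthesis gene among the members did not pass the test. Aldh1a2, the main enzyme that makes retinoic acid in the early embryo, was at 69.2 and 63.4 on the Hemangioblast arrays against 46.1 and 63.2 on the hCD4 arrays. The nearest arrays of the groups, at 63.4 and 63.2, were almost level, and hCD4 replicate 1 sat below the other 3. The log2 change was 0.23 (SE 0.331, interval -0.53 to 0.99, limma adjusted p = 0.833), so a rise of up to 1.99-fold or a fall of up to 1.44-fold lies inside the interval. The probe set was dim on all 4 arrays.

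The CRABP proteins bind retinoic acid in the cytoplasm, where CRABP2 hands it to the receptors in the nucleus and CRABP1 is linked to its breakdown. Crabp1 was at 122 and 35.5 on the Hemangioblast arrays, a 3.45-fold gap between replicates and the widest of any member, and at 77.5 and 96.9 on the hCD4 arrays, which fall between them. Its log2 change was -0.28 (SE 0.472, interval -1.37 to 0.80, limma adjusted p = 0.86). The sign rested on 1 array: without Hemangioblast replicate 2 the change was 0.43 (adjusted p = 0.765), and without Hemangioblast replicate 1 it was -0.99 (adjusted p = 0.333).

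Crabp2 was at 95.5 and 60.0 on the Hemangioblast arrays against 52.6 and 61.6 on the hCD4 arrays. Hemangioblast replicate 1 was the highest and the other 3 arrays lay close together, so the groups overlapped. The log2 change was 0.34 (SE 0.345, interval -0.46 to 1.13, limma adjusted p = 0.737). Crabp2 is a known retinoic acid-induced gene in many cells, and its change here did not pass the test. Without Hemangioblast replicate 1 the log2 change was 0.06.

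Of the receptors, RARs bind retinoic acid directly. Rara, the broadly expressed RAR, was at 25.8 and 43.5 on the Hemangioblast arrays against 67.3 and 74.6 on the hCD4 arrays. The groups did not overlap, and their means of 34.6 ± 12.6 and 70.9 ± 5.18 (SD, n = 2) gave the largest fold after Cyp26a1, 2.05. The log2 change was -0.80 (SE 0.350, interval -1.60 to 0.0025, unadjusted p = 0.0506, limma adjusted p = 0.308), and it stayed negative under every alternative that tested it, from -1.06 to -0.46. All 4 values were dim, and the adjusted p was 0.18 at its lowest and 0.673 at its highest over those alternatives.

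Rarg, the RAR of primitive streak and presomitic mesoderm, was at 67.5 and 35.9 on the Hemangioblast arrays against 47.1 and 25.5 on the hCD4 arrays. Replicate 1 was above replicate 2 in both groups, by 1.88 and 1.85-fold, and the groups overlapped. The log2 change was 0.36 (SE 0.399, interval -0.55 to 1.28, limma adjusted p = 0.759).

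RXRs are the shared partners of RARs and of several other nuclear receptors. The probe sets of Rxra were at 206, 334, 260 and 244 (92234_at) and at 183, 266, 202 and 240 (92235_g_at), in the order Hemangioblast replicates 1 and 2, then hCD4 replicates 1 and 2. Both had their highest and lowest value on a Hemangioblast array, so the groups overlapped fully. Their log2 changes were 0.06 (SE 0.265, interval -0.55 to 0.67) and 0.0033 (SE 0.261, interval -0.60 to 0.60), with limma adjusted p of 0.962 and 0.999. For Rxra a fall beyond 1.51-fold and a rise beyond 1.59-fold lie outside both intervals.

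Rxrb had the smallest standard error of the 8. It was at 446 and 443 on the Hemangioblast arrays against 553 and 379 on the hCD4 arrays, which enclose them. The log2 change was -0.04 (SE 0.216, interval -0.54 to 0.45, limma adjusted p = 0.968), so a fall beyond 1.45-fold or a rise beyond 1.37-fold lies outside the interval. The signs of Rxra and Rxrb changed with the array left out, and that of Rxra also with the scaling, so neither has a direction.

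Beyond the members, 90 further genes in 3 lists cover retinoid transport and metabolism, receptor partners and coregulators, and genes known to respond to retinoic acid. Of these 66 were measured, each by its brightest probe set, and 4 passed the limma threshold, 2 lower and 2 higher. That is 6.06%, beside 5.38% of all 8251 genes (1.95% lower and 3.43% higher). The median log2 change was 0.02, as over all genes. At an unadjusted p under 0.05 there were 12 of 66 (18.2%), beside 18.3% of all genes. These shares are near those of all genes.

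In the transport and metabolism list 1 of 19 measured genes rose and 0 fell (median log2 change -0.01). Fabp5, a fatty acid-binding protein that can also carry retinoic acid to another nuclear receptor, PPAR-delta, was at 861 and 907 on the Hemangioblast arrays against 204 and 345 on the hCD4 arrays. The groups were well apart, and the log2 change was 1.68 (SE 0.246, limma adjusted p = 0.00763), with an adjusted p of 0.0713 when the variance model had no intensity trend. Fabp5 is also abundant in macrophages, and the myeloid markers moved with it as given above, whose part in this rise was not tested. Ppard, the gene of PPAR-delta itself, is in the list of receptor partners and had a log2 change of -0.08 with 4.62 to 19.8 as the range of its arrays.

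The enzymes around the vitamin A to retinoic acid step were below the threshold. Rdh11, a retinol dehydrogenase, was at 709 and 764 against 1199 and 1010 (log2 change -0.57, limma adjusted p = 0.103). Adh5, a widely expressed alcohol dehydrogenase, was at 1569 and 1104 against 2163 and 1991 (-0.65, limma adjusted p = 0.108), and passed with dim probe sets left out (0.0432) and without Hemangioblast replicate 1 (0.0162). Each has another probe set that was also lower, at -0.46 and -0.48. In both genes every hCD4 array lay above every Hemangioblast array. Groups did not overlap in 44.4% of all probe sets, and these genes were named for a small adjusted p.

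Dhrs3, which turns retinaldehyde back into retinol and is induced by retinoic acid, was at 313 and 356 against 185 and 222. Its groups did not overlap, and the log2 change was 0.68 (SE 0.221, limma adjusted p = 0.154). Rbp2, a cellular retinol-binding protein, was at 225 and 138 against 142 and 81.9 (0.63, limma adjusted p = 0.451), with overlapping groups. Of the sister enzymes of Aldh1a2, Aldh1a1 had a log2 change of 0.25 and Aldh1a3 of -0.23. Cyp26b1 and Cyp26c1, the other CYP26 genes, were not analysed here.

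**Figure D3:**
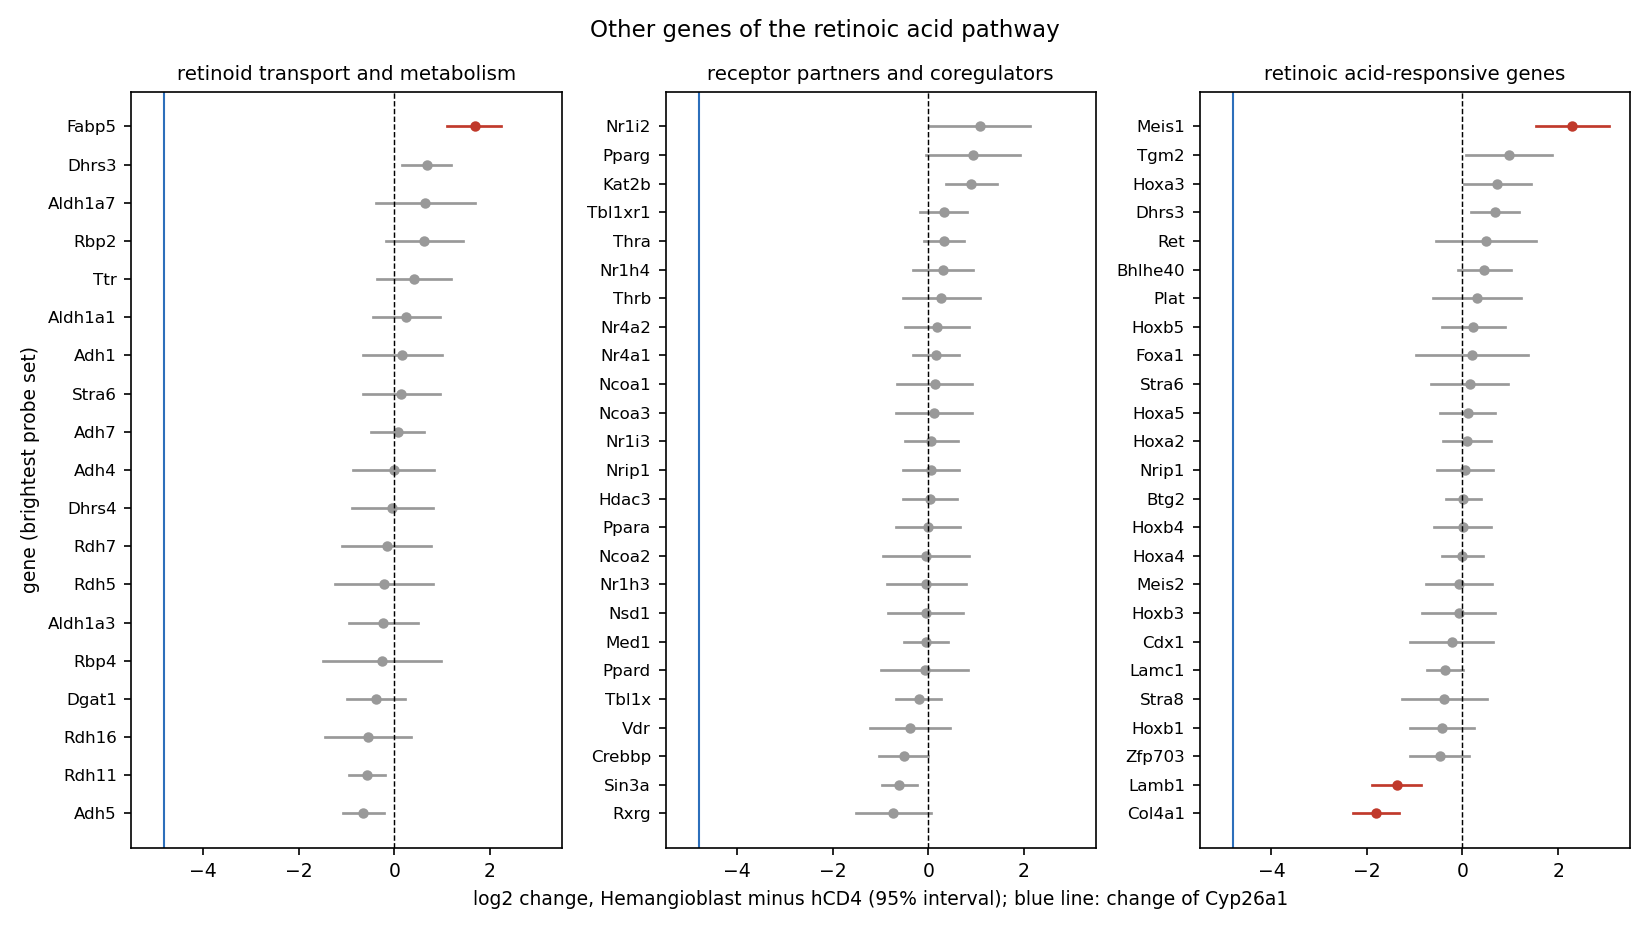
Log2 change (Hemangioblast minus hCD4) with its 95% interval for each measured gene of 3 pathway lists, red where the adjusted p is under 0.05, with a blue line at the change of Cyp26a1. Fabp5 and Meis1 lie above 0, and Lamb1 and Col4a1 below. No interval reaches the blue line, which is a description, since Cyp26a1 was chosen for its large fall.

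Among receptor partners and coregulators 0 of 25 measured genes passed the limma threshold, and 3 had an unadjusted p under 0.05 (median log2 change 0.05). The nearest were Kat2b, a histone acetyltransferase used by nuclear receptors, at 363 and 280 against 168 and 159 (0.90, limma adjusted p = 0.0805), and Sin3a, a corepressor scaffold, at 519 and 469 against 745 and 774 (-0.61, limma adjusted p = 0.0889). The groups of both did not overlap, as for 44.4% of all probe sets. Kat2b passed with dim probe sets left out (0.0261), but its other probe set was at 0.13. Nr1i2, a xenobiotic receptor that pairs with RXR, was at 73.6 and 22.9 against 9.30 and 15.2 (1.07, limma adjusted p = 0.293), and the coactivator gene Crebbp had a log2 change of -0.52 (limma adjusted p = 0.308). Rxrg, the remaining RXR, was near the floor of the arrays at 1.18 to 15.8.

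In the list of retinoic acid-responsive genes 2 of 25 measured genes fell and 1 rose (median log2 change 0.05). Col4a1, a basement membrane collagen, was at 731 and 470 on the Hemangioblast arrays against 2024 and 2153, a log2 change of -1.80 (SE 0.211, limma adjusted p = 0.00238). Lamb1, a laminin chain, was at 255 and 178 against 612 and 550, a log2 change of -1.38 (SE 0.224, limma adjusted p = 0.013). Both are basement membrane genes known to be induced when retinoic acid turns embryonal carcinoma cells into endoderm. Lamb1 missed the threshold without hCD4 replicate 1 (0.106), without hCD4 replicate 2 (0.0801), without an intensity trend (0.0769) and without scaling (0.0733), and its other probe set was at -0.50 (adjusted p = 0.427).

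Lamc1, another laminin chain gene of that list, was at 533 and 511 against 663 and 695 (log2 change -0.37, limma adjusted p = 0.31), and its other probe set was at -0.0025. Endoderm markers stood beside these basement membrane genes with 1 of 9 lower at a limma adjusted p under 0.05, Gata6, and 0 higher. By sign, 7 had a log2 change below 0 and 2 above. Their summed scaled intensity was 1208 to 1391 on the Hemangioblast arrays and 1708 to 1794 on the hCD4 arrays. Apoa1 and Hnf4a were at 15.1 or less on every array, and Afp, Apob, Cer1, Foxa2, Gata4, Gata6 and Sox17 at 73.9 or more. The part of these cells in the fall of Col4a1 and Lamb1 was not tested. Fibroblast markers, a check for feeder cells, had 1 lower and 1 higher of 10 at that threshold, with sums of 2318 to 2921 against 2362 to 2528.

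Meis1, a homeobox gene of blood progenitors that retinoic acid can induce, was at 108 and 111 on the Hemangioblast arrays against 10.1 and 8.85 on the hCD4 arrays. Its log2 change was 2.30 (SE 0.331, limma adjusted p = 0.00686), and 3.40 with an added constant of 1 because the hCD4 values lay below 16. Tgm2, a transglutaminase widely used as a retinoic acid readout, was at 123 and 106 against 31.2 and 76.7 (0.98, limma adjusted p = 0.26). Hoxa3 was at 105 and 102 against 55.9 and 56.3 (0.73, limma adjusted p = 0.285). The early Hox gene Hoxb1, a direct target of the receptors in the hindbrain, was at 85.5 and 82.4 against 123 and 112 (-0.42, limma adjusted p = 0.572). The other measured Hox genes of the list, Hoxa2, Hoxa4, Hoxa5, Hoxb3, Hoxb4 and Hoxb5, had log2 changes of -0.08 to 0.23 and did not pass.

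The 5 genes whose pattern over the 4 arrays was most like that of Cyp26a1 were taken, with the members left out of the ranking. None is in the pathway lists. Those lists hold only 66 of the 8251 measured genes, so this does not show if the pathway followed Cyp26a1. Likeness was the Euclidean distance between log2 values centred on each gene's mean over the 4 arrays, so it counts size as well as shape. The nearest of the measured genes was the uridine phosphorylase gene Upp1 at a distance of 1.01, with 85.6 and 56.8 on the Hemangioblast arrays against 1622 and 944 on the hCD4 arrays. Next came Etv2, a transcription factor of blood and endothelial mesoderm (1.54), the growth factor gene Fgf3 (1.89), the mesendoderm regulator Eomes (2.06), and the glycine decarboxylase gene Gldc (2.08). The other measured members stood at 4.06 (Rara) to 5.19 (Rarg).

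These 5 genes had log2 changes of -3.87 to -2.78, and over 4 arrays the measure mainly picks large falls. Cyp26a1 is known in the primitive streak region. At a limma adjusted p under 0.05, 2 of 12 measured primitive streak markers were lower, Eomes and Fgf3, and 0 were higher. By sign, 9 had a log2 change below 0 and 3 above. The summed scaled intensity of that list was 2843 to 3565 on the Hemangioblast arrays and 4537 to 4817 on the hCD4 arrays. Eomes was at 90.9 and 154 against 1084 and 853, and Fgf3 at 115 and 86.7 against 732 and 1275. Both are among the 5 genes picked for a fall like that of Cyp26a1, so their fall is a description and not a separate test. The part of such cells in the fall of Cyp26a1 was not tested.

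**Figure D4:**
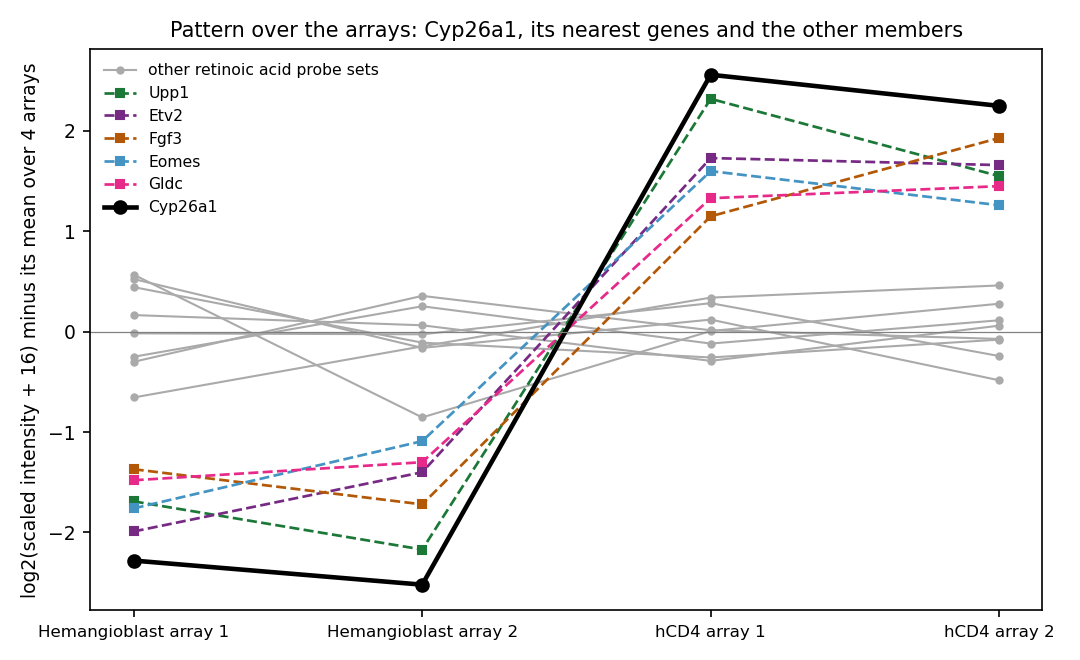
Log2(scaled intensity + 16) of each gene minus its mean over the 4 arrays, in the order Hemangioblast replicates 1 and 2 and hCD4 replicates 1 and 2. Cyp26a1 (black) runs from -2.52 to 2.56, the 5 nearest genes (dashed) run with it at a smaller size, and the other member probe sets (grey) stay between -1 and 1.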

How the data were processed

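For 12488 probe sets the authors deposited a linear intensity on each of the 4 arrays, whose software, background correction and scaling were not given in the sources used here. After 66 control probe sets were left out, all arrays were brought to 1 common trimmed mean (2% trimmed at each end), and log2 of the scaled intensity plus 16 was fitted with limma 3.58.1 in R 4.3.3 (lmFit, eBayes with an intensity trend), 2 arrays against 2, without a block. The test was two-sided and adjusted over 12422 probe sets. An exact permutation test cannot go below 0.333 here. Genes were named from the platform annotation: 10833 probe sets have 1 symbol, 396 several and 1193 none. 10817 were found in RefSeq by gene identifier and 0 symbols differed. The number of arrays limits the precision, with a median SE of 0.27.

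The members and gene lists were chosen with earlier results of these data known. Named were all member probe sets, pathway genes past the threshold with up to 4 more per list, and the 5 genes nearest to Cyp26a1. Ppard, Aldh1a1, Aldh1a3, Rxrg, Hbb-y, the Hox genes other than Hoxa3 and single markers were named outside that rule, after their values were seen. Alternatives were the added constant, scaling, a limit on dim probe sets, the variance trend, a replicate block and leaving out each array. Plots were made in Python 3.11.15 with matplotlib 3.10.9.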

Additional observations from a re-analysis of the deposited data

How the results depend on the processing

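The log2 change of Cyp26a1, a description since its fall chose it, ran from -5.16 to -4.07 over 12 alternatives. No other member probe set passed under any alternative that tested it. Leaving out dim probe sets (mean scaled intensity under 100) removed 5 of those 8 from the test. The count of called probe sets, 556, became 272 without scaling (81.6% higher, against 65.1%), 220 without an intensity trend and 853 without dim probe sets, and 219 to 517 with 1 array left out (370 without Hemangioblast replicate 2, 268 without hCD4 replicate 1 and 219 without hCD4 replicate 2). Called pathway genes, 2 lower and 2 higher, became 1 lower without scaling, 1 lower and 1 higher without an intensity trend, and 1 to 3 lower with 1 array left out (1 without either hCD4 array). Signs turned for values that did not pass: Rxra by 92234_at was -0.02 with median scaling and -0.27 to 0.38 with 1 array left out, Rxra by 92235_g_at -0.08 with median scaling, -0.06 with quantile normalization and -0.25 to 0.26 with 1 array left out, Rxrb -0.31 to 0.22 and Crabp1 -0.99 to 0.43 with 1 array left out. The causes were not tested. The labels do not say if same-numbered arrays are paired. Deviations of same-numbered arrays from their group means correlated at -0.00781, which cannot settle it. With the replicate block 710 probe sets were called, and the counts of called members and pathway genes were as before. With 1 array left out, the lone array of a group is assumed to vary like the others.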
